A study of Mus musculus with 2 samples.

Results

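ABC transporters are proteins that use ATP to carry compounds across membranes, and their genes are named Abc with a letter for the subfamily and a number. The family described here is every row of the deposited gene tables that maps to a protein-coding mouse gene with such a symbol. Abcg5, Abcg8 and Abca1 were left out by the rule and are used for comparison. This gave 47 genes of the 43346 gene rows, with 15 in subfamily A, 10 in B, 10 in C, 4 in D, 1 in E, 3 in F and 4 in G. The choice used names only and no measured value.

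The tissue was the duodenum, where the small intestine begins, of C57BL/6J mice at 8 weeks of age. Male and female littermates were pooled, no treatment or mutation is given, and the health state is labelled unknown. The 2 libraries, called replicate 2 and replicate 1 after their labels, form 1 group. The labels number them as separate biological replicates. They carry the same donor entry and different tissue-sample entries. Whether they come from separate animals is not known, and part of their spread may be technical. The only comparison is between these libraries, and it says nothing of a condition.

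An ABC transporter has a pair of ATP-binding domains, the cassettes that give the family its name, and a pair of membrane domains. Some genes encode the whole pump, others encode a protein with a single cassette that works as a dimer. In the gut, Abcb1a (P-glycoprotein), Abcg2 and Abcc2 are known for pumping drugs, toxins and conjugates from the enterocyte back into the lumen, and Abcc3 for passing conjugates to the blood side. Other members work inside the cell, in mitochondria, peroxisomes and lysosomes. Subfamilies E and F lack membrane domains and act with ribosomes.

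The ATP-binding loop called Walker A is a sequence that nearly all of the family shares. Translated coding sequences of the longest annotated form (GENCODE M21) held the Walker A pattern in 46 of the 47 genes, all but Abcg3. The ABC signature pattern, the other hallmark of the cassette, was searched as the exact letters LSGG and found in 40, and both patterns in 40. Genes without this match include Abcg2, Abcd4 and Abcf2. A search for exact letters misses variants, so it does not show that these lack the signature. Among the other protein-coding genes read, 28, or 0.131%, held both. Other genes with Walker A alone were not counted, so its presence is not shown to be particular to the family. Walker A occurred at 2 places in 34 genes and at 1 place in 12. The genes with 1 were 5 of subfamily B, the 4 of subfamily D, and Abcg1, Abcg2 and Abcg4. A match is a match of letters and does not show that a protein binds ATP.

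The loop is shown for 4 genes with a high level of full-length coding transcripts, a measure explained further on. Each line gives 60 bases of coding sequence from GENCODE M21 (GRCm38), 5′ to 3′, with the codons of the Walker A pattern in capitals.
Abcb8: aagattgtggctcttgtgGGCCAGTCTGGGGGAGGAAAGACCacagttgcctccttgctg
Abcc3: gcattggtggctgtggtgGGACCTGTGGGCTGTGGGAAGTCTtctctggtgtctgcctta
Abcc10: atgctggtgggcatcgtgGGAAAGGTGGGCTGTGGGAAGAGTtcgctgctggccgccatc
Abcf2: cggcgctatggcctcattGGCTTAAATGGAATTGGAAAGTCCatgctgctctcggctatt

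Near-identical copies matter for counting, and a neighbouring group on chromosome 5 is the clearest case. The 78 bases of coding sequence at the first Walker A are shown for Abcb1a, Abcb1b and Abcb4, in the same form, with capitals at the 6 positions where the sequences differ.
Abcb1a: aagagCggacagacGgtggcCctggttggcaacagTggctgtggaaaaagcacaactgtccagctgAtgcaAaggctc
Abcb1b: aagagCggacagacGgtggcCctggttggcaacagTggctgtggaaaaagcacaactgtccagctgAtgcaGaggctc
Abcb4: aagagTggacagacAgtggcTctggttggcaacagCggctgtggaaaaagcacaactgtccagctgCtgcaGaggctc
Abcb1b differed from Abcb1a at 1 position of this stretch and Abcb4 at 6. Over whole transcripts, 12.4% of the 76-base words of Abcb1a, 8.04% of those of Abcb1b and 1.25% of those of Abcb4 also occur in another gene. A word of 76 bases is as long as 1 read, so most reads can still be told apart. Abcb6 shared 47.4% of its words with Gm29253, an annotated transcript on the same strand that overlaps it, and the split of counts between these is uncertain. No other member shared more than 1.22%.

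The libraries held 45438504 counts in replicate 2 and 44977004 in replicate 1, with spike-ins included. Markers of the absorbing enterocyte were present in both, with summed levels of 25731 TPM in replicate 2 and 5707 TPM in replicate 1. TPM is a level per transcript length, with each library brought to 1 common sum. Markers of the acinar pancreas summed to 114 and 64118 TPM in replicate 2 and replicate 1, those of the stomach to 61.6 and 12575 TPM, and those of Brunner's gland to 26.8 and 12156 TPM. All 16 of these gland genes were higher in replicate 1. These gland genes took 0.0202% of all TPM in replicate 2 and 8.88% in replicate 1. The Brunner's gland markers were only Tff2 and Muc6. They were higher in replicate 1 like the stomach markers, so these values do not tell Brunner's gland and stomach apart. Adipocyte markers ran the other way, at 375 TPM in replicate 2 and 10.7 in replicate 1. All 5 were called higher in replicate 2, against 11.4% of all genes tested. Markers of these glands and tissues thus differed between the libraries, and their part in the results below was not tested. In bulk tissue, fewer cells of a type and less RNA per cell cannot be told apart.

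The family as a whole was a small part of the RNA. Its TPM summed to 647 in replicate 2 and 755 in replicate 1, a mean of 701 ± 76.6 (SD, n = 2), or 0.0647% and 0.0755% of all TPM. A TPM of at least 1 in both libraries was reached by 24 members, or 51.1%, near the 49.7% of all protein-coding genes. In either library 27 reached it, and 16 had at least 10 TPM in both. The 5 members with the highest means, among them Abcc3, Abcb8, Abcf1 and Abcc10, held 56.6% of the family's TPM in replicate 2 and 56.4% in replicate 1. The order of the members was close between the libraries, with a Spearman correlation of 0.965 across the 47 genes, which share their transcript models and are not independent replicates.

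**Figure D1:**
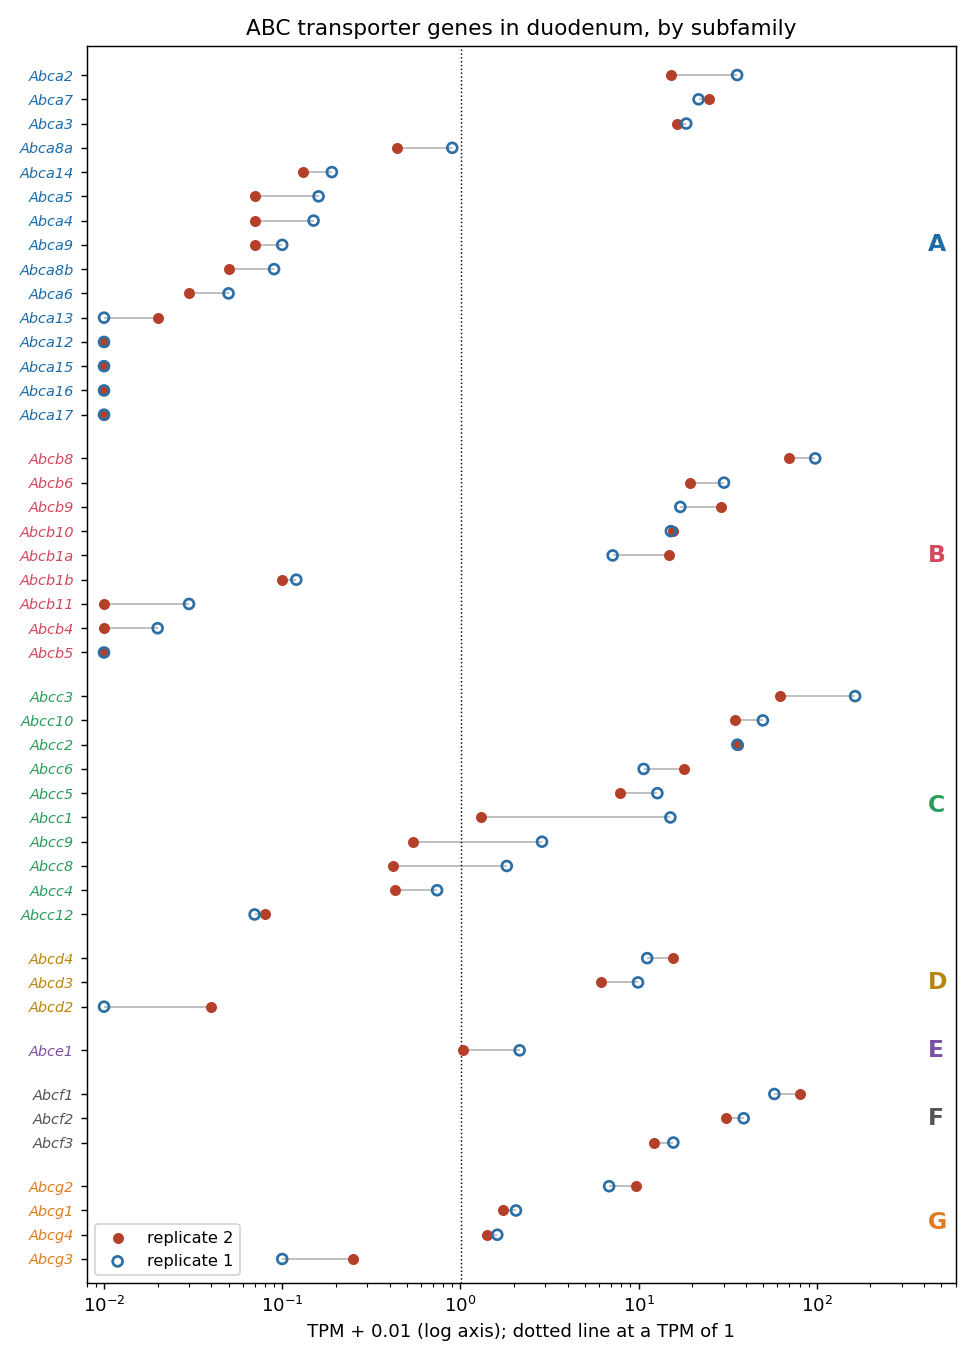
TPM of 45 members in replicate 2 (filled) and replicate 1 (open), grouped by subfamily and joined by a line, on a log axis with 0.01 added so that genes at 0 show at the left edge. Of those plotted, 23 lie right of a TPM of 1 in both libraries, and Abcc1 has the widest gap among plotted members of at least 5 TPM on average.

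Between the libraries, each gene's counts were scaled to the TMM library sizes and tested with an exact binomial test, and a gene was called where the adjusted p was under 0.05 and the ratio at least 2-fold. Of 35 members with a mean count of at least 10, 4 were called higher in replicate 2 (background: 11.4% of all 15921 genes tested) and 6 higher in replicate 1 (background: 14.5%). The other 25 were not called. The 10 calls among 35 members lie near what the background gives. The log2 ratio of replicate 2 over replicate 1 had a median of -0.16 over the members and -0.04 over all genes tested. The median absolute log2 ratio was 0.53 for the members and 0.47 for all genes tested. An adjusted p under 0.05 alone was reached by 29 of the 35 members and by 74.6% of all genes tested. The binomial test knows only counting error. With the spread that edgeR estimated from the libraries taken as replicates, a coefficient of variation of 0.537, its exact test called 0 members and found 0 at an unadjusted p under 0.05, the smallest being 0.0574 for Abcc9 (adjusted p = 0.993). Over all genes that test called 43 higher in replicate 2 and 169 higher in replicate 1, and 5.40% had an unadjusted p under 0.05. Its spread came from the same libraries that it then compared, so few calls followed from the set-up. These counts therefore cannot show whether the members differ.

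**Figure D2:**
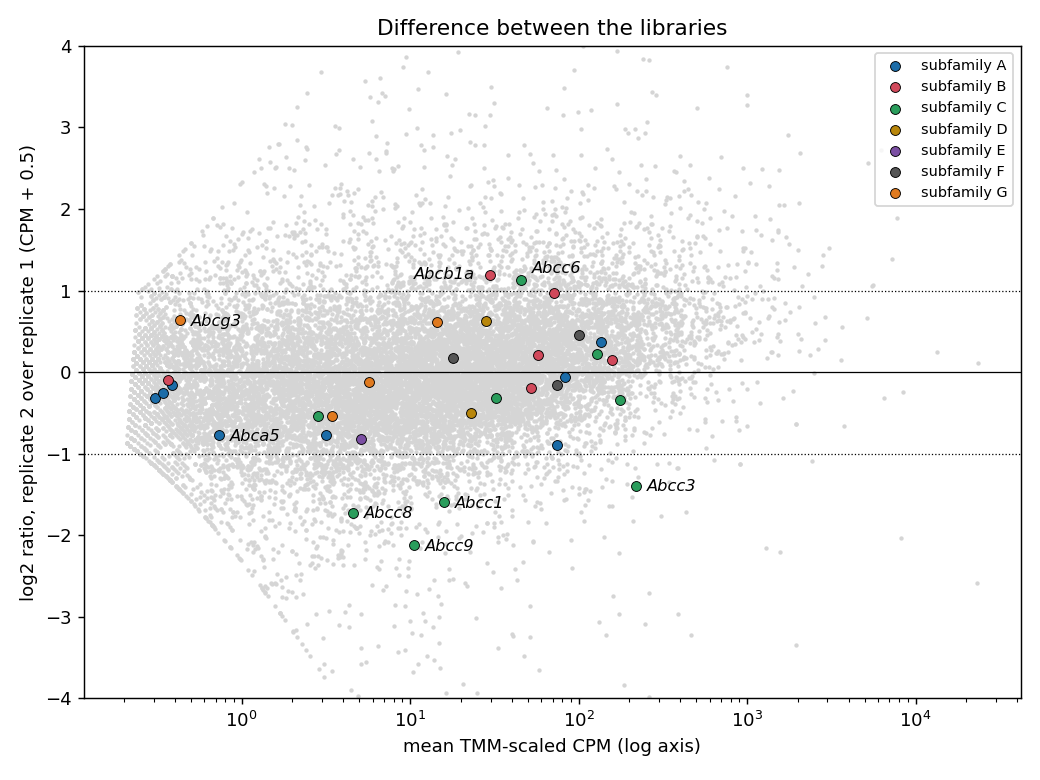
Log2 ratio of replicate 2 over replicate 1 (on CPM after TMM scaling, plus 0.5) against mean CPM on a log axis, for all 15921 tested genes (grey) and 33 tested members (coloured by subfamily), with called members named. The dotted lines mark a 2-fold difference, 122 genes lie beyond the plotted range of 4 log2 units, and the members spread through the grey cloud; Abcg3 and Abca5 lie inside the lines because the added 0.5 shrinks ratios of few counts.

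Subfamily C, the multidrug resistance-associated proteins and the sulfonylurea receptors, had the largest TPM sum in both libraries, 161 in replicate 2 and 293 in replicate 1. On full-length transcripts alone, described below, subfamily C had 87.4 TPM in replicate 2, less than subfamily D and the 122 TPM of subfamily B. In replicate 1 it had 148.5 TPM. Abcc3, the pump on the blood side of the enterocyte, was the member with the highest mean level of the family. It had 62.1 TPM in replicate 2 and 164 in replicate 1, a mean of 113 ± 72.1 (SD, n = 2). Its rank in the family was 4 in replicate 2 and 1 in replicate 1. By mean on the full-length transcripts described below, Abcc3 ranked 3 with 46.5 TPM, and Abcb8 ranked 2 with 52.1 TPM. Abcc3 was called 2.63-fold higher in replicate 1 (95% interval of 2.55 to 2.72, counting error only). The gene lies at chr11:94343295-94392997 on the minus strand (mm10). Abcc2, the luminal pump for bilirubin and glutathione conjugates, had 36.2 TPM in replicate 2 and 35.8 TPM in replicate 1, with 5719 counts in each. The levels of Abcc2 thus lay within 1 TPM of each other while those of Abcc3 did not. This did not hold for the other luminal pumps named above. Abcb1a had 14.9 TPM in replicate 2 and 7.14 in replicate 1, and Abcg2 had 9.68 and 6.82 TPM.

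Abcc10, which exports lipophilic drugs in transfected cells, stood at 34.6 TPM in replicate 2 and 49.8 in replicate 1 and was not called. Abcc6, the transporter whose loss causes ectopic mineralisation, had 17.9 TPM in replicate 2 and 10.7 TPM in replicate 1. It was called 2.21-fold higher in replicate 2 (2.07 to 2.36), and this call ended with scaling to spike-ins or to total counts. Abcc5, an exporter of cyclic nucleotides, had 7.87 TPM in replicate 2 and 12.7 TPM in replicate 1, without a call. Abcc1, a broad exporter of glutathione conjugates, had 1.30 TPM in replicate 2 and 15.1 TPM in replicate 1 on 314 and 1155 counts, and was called 3.15-fold higher in replicate 1 (2.78 to 3.58). The gap in TPM is wider than the gap in counts, which is taken up with the transcripts below. Abcc4 at 0.42 TPM in replicate 2 and 0.73 in replicate 1 and Abcc12 at 0.07 and 0.06 TPM were the lowest of the subfamily by mean.

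Abcc8 and Abcc9 encode the sulfonylurea receptors, which transport nothing themselves but gate potassium channels. Abcc8 had 0.41 TPM in replicate 2 and 1.81 in replicate 1 and was called 3.92-fold higher in replicate 1 (3.05 to 5.08). Its channel partner Kcnj11, the other subunit in pancreatic beta cells, was also called higher in replicate 1, at 0.34 TPM in replicate 2 and 1.09 in replicate 1. Of 5 islet markers 3 were called higher in replicate 1, against 14.5% of all genes tested, and none higher in replicate 2. The islet markers summed to 10.4 TPM in replicate 2 and 608 TPM in replicate 1. Of these, Ins1 and Ppy were at 0 in replicate 2, and Ins2 made up 522 TPM of the sum in replicate 1. Iapp was not called. Gcg went the other way without a call, at 8 TPM in replicate 2 and 7.01 in replicate 1. The part of islet tissue in the Abcc8 result was not tested. Abcc9, the receptor of muscle and vessels, had 0.53 TPM in replicate 2 and 2.86 TPM in replicate 1. Its 4.83-fold higher count in replicate 1 (4.05 to 5.78) was the largest ratio among the called members. Its partner Kcnj8 had 3.39 TPM in replicate 2 and 7.49 TPM in replicate 1, 1.98-fold on counts, and was not called. Smooth muscle markers summed to 1242 TPM in replicate 2 and 1831 TPM in replicate 1. Of these 6 markers 2 were called higher in replicate 1, against 14.5% of all genes tested. Pericyte markers summed to 25.1 TPM in replicate 2 and 36.2 TPM in replicate 1, with none of 4 called. The part of these cells in the Abcc9 result was not tested.

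Subfamily B mixes drug pumps of the cell surface with transporters of mitochondria and lysosomes, and summed to 149 TPM in replicate 2 and 181 TPM in replicate 1. Abcb1a, P-glycoprotein of the rodent gut and of the blood-brain barrier, had 14.9 TPM in replicate 2 and 7.14 TPM in replicate 1. It was called 2.31-fold higher in replicate 2 (2.13 to 2.51), a call that ended with scaling to spike-ins or to total counts. Abcb1b, the other mouse copy of P-glycoprotein, had 0.09 TPM in replicate 2 and 0.11 TPM in replicate 1, on 14 and 19 counts. Its neighbour Abcb4, the phosphatidylcholine flippase of bile, had 0 and 2 counts in replicate 2 and replicate 1. Of the 3 adjacent genes whose sequence is shown above, Abcb1a alone was above 1 TPM. Abcb11, the bile salt export pump of the liver, had 0 counts in replicate 2 and 4 counts in replicate 1, and Abcb5 had none in either.

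Among the intracellular members of B, Abcb8 of the mitochondrial inner membrane was the highest, at 69.4 TPM in replicate 2 and 97.9 in replicate 1. Its counts were 6796 in replicate 2 and 7161 in replicate 1, and the log2 ratio on counts was 0.15 with TMM scaling and -0.095 with spike-in scaling. Abcb6, a porphyrin transporter, had 19.3 TPM in replicate 2 and 30.1 TPM in replicate 1. Abcb9, a lysosomal peptide transporter, had 29.2 TPM in replicate 2 and 17.1 TPM in replicate 1, 1.97-fold higher in replicate 2 and just short of a call. Abcb10, an inner membrane protein needed for haem synthesis in red cells, was nearly level, at 15.7 TPM in replicate 2 and 15.2 in replicate 1. It lies within Gm20388 on the opposite strand, and while the libraries were stranded, the sources used here do not give the strand setting of the counting.

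Subfamily D holds carriers of fatty acids and vitamins in peroxisomes and lysosomes. Abcd4, the lysosomal exporter of vitamin B12, had 15.5 TPM in replicate 2 and 11.2 TPM in replicate 1. Abcd3, which carries branched and dicarboxylic fatty acids, had 6.17 TPM in replicate 2 and 9.91 TPM in replicate 1. Neither was called, and Abcd2 had 6 counts in replicate 2 and 1 count in replicate 1. Enterocyte markers were called higher in replicate 2 in 6 of 9 genes. The same direction was called for 4 of 5 goblet, 3 of 4 Paneth and 3 of 5 macrophage markers. It was also called for 4 of 4 T lymphocyte, 4 of 4 red blood cell and 5 of 5 adipocyte markers. None in these lists was called higher in replicate 1. The shares over all genes tested were 11.4% called higher in replicate 2 and 14.5% called higher in replicate 1. The part of any of these cells in the Abcb1a and Abcc6 results was not tested.

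Subfamilies E and F are soluble proteins of translation. Abcf1, which binds the initiation factor eIF2, had 80.2 TPM in replicate 2 and 57.8 TPM in replicate 1. Abcf2 had 31.0 TPM in replicate 2 and 38.9 in replicate 1, and Abcf3 had 12.1 TPM in replicate 2 and 15.7 TPM in replicate 1. None of the 3 was called, and their sum was 123 TPM in replicate 2 and 112 TPM in replicate 1. Abce1, which splits ribosomes for recycling, was much lower, at 1.02 TPM in replicate 2 and 2.14 in replicate 1. The partners of Abce1 and Abcf1 in translation, Etf1, Pelo, Hbs1l and Eif2s1, were not called either and lay between 1.66 and 16.9 TPM.

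Subfamily G, the reverse-order transporters with the cassette first, summed to 13.04 TPM in replicate 2 and 10.6 TPM in replicate 1 without Abcg5 and Abcg8. Abcg2, the luminal pump for drugs and urate, had 9.68 TPM in replicate 2 and 6.82 TPM in replicate 1, with no call. Abcg1, a sterol exporter, and Abcg4, its relative in brain, lay between 1.40 and 2.04 TPM. Abcg3, a rodent gene whose coding sequence lacks the Walker A pattern, was called 2.76-fold higher in replicate 2 (1.32 to 6.18), on 26 counts in replicate 2 and 11 counts in replicate 1. The left-out sterol pair of the luminal membrane was far above these, with 271 TPM in replicate 2 and 144 TPM in replicate 1 for Abcg5 and 247 and 105 TPM for Abcg8.

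Subfamily A, large lipid transporters, was the most uneven, with 3 members above 15 TPM in both libraries and 12 below 1 TPM. Abca7, a phospholipid transporter of phagocytes and brain, had 24.9 TPM in replicate 2 and 21.7 TPM in replicate 1. Abca2, a lysosomal lipid transporter, had 15.2 TPM in replicate 2 and 35.7 in replicate 1, a 1.86-fold higher count in replicate 1 that was not called. Abca3, which loads surfactant lipid in the lung, had 16.5 TPM in replicate 2 and 18.5 TPM in replicate 1. The rest include Abca4 of photoreceptors, Abca12 of skin, and a chromosome 11 group of Abca5, Abca6, Abca8a, Abca8b and Abca9, whose members had 0.02 to 0.89 TPM. Of this group Abca5 alone was called, higher in replicate 1, with 0.06 TPM on 17 counts in replicate 2 and 0.15 TPM on 51 counts in replicate 1. Abca12, Abca15, Abca16, Abca17 and Abcb5 had 0 counts in each library, so levels up to 0.0728 CPM in replicate 2 and 0.0624 CPM in replicate 1 (3 counts on the TMM library sizes) could have been missed. Together with Abca6, Abca13, Abca14, Abcb4, Abcb11, Abcc12 and Abcd2 they make up the 12 members with too few counts to test.

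Much of the TPM of several members came from short annotated transcripts that cannot encode the whole protein. A short transcript turns few counts into a high TPM, because the value is divided by length. Coding transcripts with at least 80% of the gene's longest coding sequence, called full-length here, held 91.3% of the family's counts in replicate 2 and 89.2% in replicate 1. They held 73.7% of its TPM in replicate 2 and 60.9% in replicate 1. On this measure, chosen after seeing the transcript tables, the family's sum was 477 TPM in replicate 2 and 460 TPM in replicate 1. Of the 22 members with a mean TPM of at least 5, 8 had under 50% of their TPM in full-length transcripts in both libraries.

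**Figure D3:**
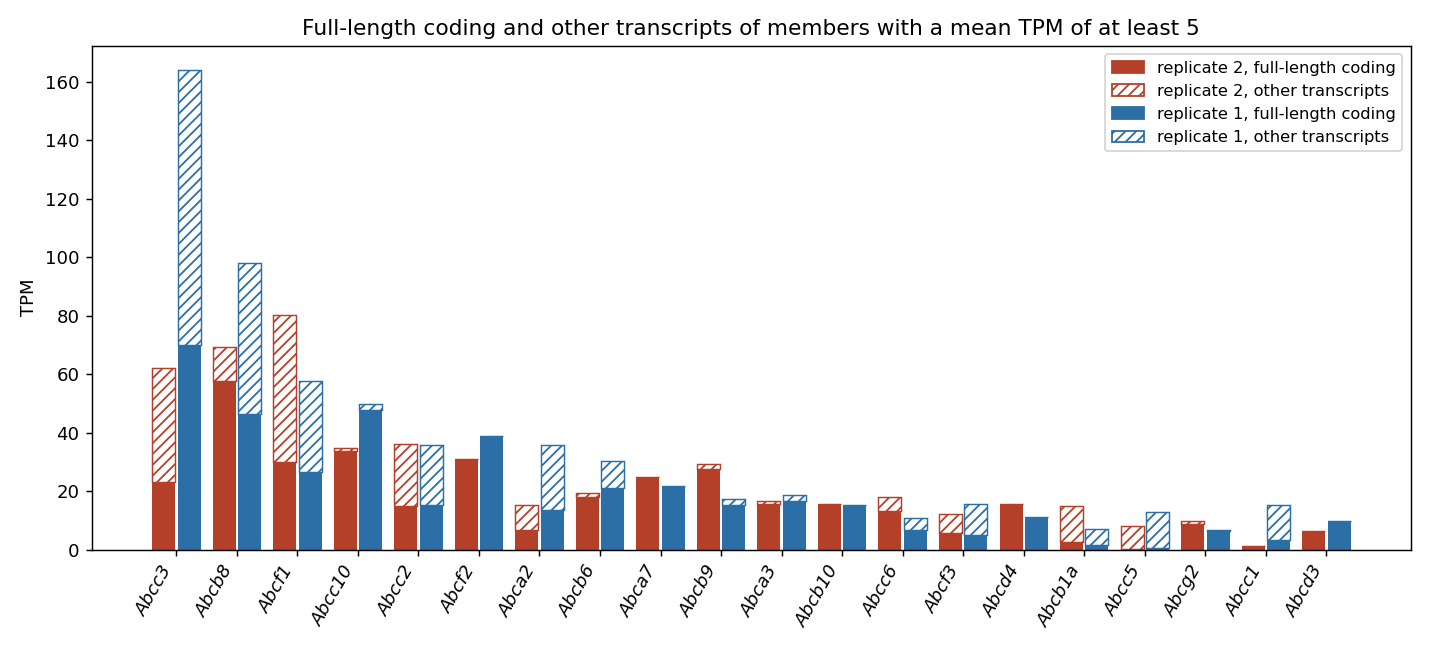
TPM of 20 members with a mean of at least 5 TPM, as bars from 0 split into full-length coding transcripts (solid) and all others (hatched), with replicate 2 left of replicate 1 for each gene. Abcc10 and Abcf2 are solid almost throughout, whereas Abcc3, Abcf1, Abcc2, Abca2, Abcb1a and Abcc5 are mostly hatched in both libraries.

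By full-length transcripts Abcb8 had 57.8 TPM in replicate 2 and 46.4 TPM in replicate 1. Abcc3 had 23.2 TPM in replicate 2 and 69.8 TPM in replicate 1. Its transcript Abcc3-203, a processed transcript of 567 bases near the 3′ end of the gene, held 60.5% of the gene's TPM in replicate 2 and 57.2% in replicate 1. On full-length counts Abcc3 was 2.68-fold higher in replicate 1 (2.59 to 2.77). Abcf1-205, a retained-intron transcript of 855 bases, held 59.5% of the TPM of Abcf1 in replicate 2 and 51.1% in replicate 1, and full-length Abcf1 had 29.9 and 26.4 TPM. Abca2-204, of 519 bases, held 45.7% of the TPM of Abca2 in replicate 2 and 51.7% in replicate 1. The luminal pump Abcc2 had 14.7 TPM in replicate 2 and 15.3 TPM in replicate 1 on full-length transcripts.

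In 2 of these 22 members, Abcb1a and Abcc5, the counts too lay mostly outside the full-length form. Abcb1a-202, a retained-intron transcript of 2705 bases at the 3′ end of the gene, held 1214 counts in replicate 2 and 545 counts in replicate 1. Full-length Abcb1a held 492 and 312 counts, or 2.59 TPM in replicate 2 and 1.59 TPM in replicate 1, 1.84-fold higher in replicate 2 (1.59 to 2.13) and no longer called. Both forms of the P-glycoprotein gene thus had more counts in replicate 2. For Abcc5, the retained-intron transcript Abcc5-207 held 1055 counts in replicate 2 and 1462 counts in replicate 1, while full-length transcripts held 10.01 and 96.8 counts. On those the gene was called higher in replicate 1, 8.31-fold (4.33 to 17.9). Counts per transcript are estimated splits of a gene's counts. Calls and intervals on full-length counts, here and below, leave the error of that split out. For Abca8a, for example, the transcript Abca8a-201 held 82.8 counts in replicate 2 and 0 in replicate 1. Abca8a-202 held 1.32 counts in replicate 2 and 198 in replicate 1.

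Short transcripts also carried part of the gaps between the libraries. Abcc1-204, of 614 bases, held 0 counts in replicate 2 and 172 counts in replicate 1. Full-length Abcc1 had 1.12 TPM in replicate 2 and 3.41 in replicate 1 and was still called, 2.70-fold higher in replicate 1 (2.36 to 3.09). Abcb8-205 held 202 counts in replicate 2 and 1248 counts in replicate 1, and Abcb6-204 held 27.3 and 225 counts. On full-length transcripts Abcb8 had the higher TPM in replicate 2, the reverse of its gene-level TPM.

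Members with higher levels had transcripts of higher GC content. Transcripts of the 24 members at a TPM of at least 1 in both libraries had a median GC content of 54.5% (39.2% to 59.98%), against 44.2% (37.9% to 57.3%) for the other 23. The Spearman correlation of GC content with mean TPM was 0.627 across the 47 members and 0.464 across all protein-coding genes. These are descriptions across genes, which share the same libraries, and a part of base composition in sequencing yield was not tested. The 17 members with under 900 codons summed to 413 TPM in replicate 2 and 377 TPM in replicate 1, with medians of 12.1 and 13.9 TPM. The 30 longer members summed to 234 TPM in replicate 2 and 378 TPM in replicate 1, with medians of 0.11 and 0.17 TPM.

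**Figure D4:**
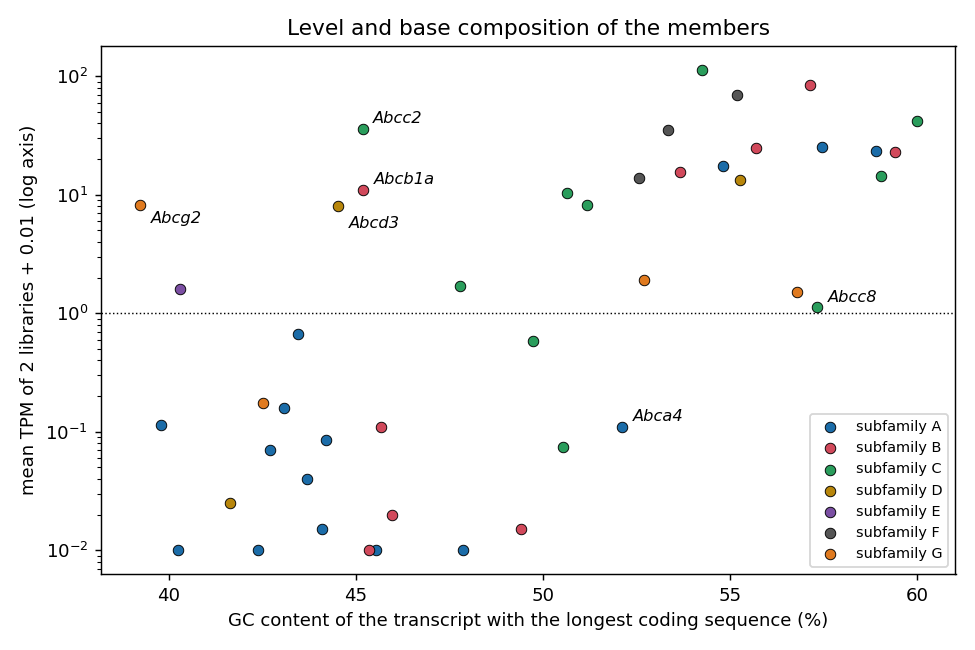
Mean TPM of the 2 libraries plus 0.01, on a log axis, against the GC content of the transcript with the longest coding sequence, for 45 members coloured by subfamily. Plotted members of at least 10 TPM lie mostly right of 50% GC, and Abcg2, Abcd3, Abcb1a and Abcc2 stand out at low GC and a mean TPM above 5.

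The regulators known to control such pumps were present in both libraries, and 3 of 13 were called, all higher in replicate 2. Over all genes tested, 11.4% were called higher in replicate 2 and 14.5% higher in replicate 1. Nr1i2, the pregnane X receptor that induces Abcb1a on contact with foreign compounds, had 89.3 TPM in replicate 2 and 43.0 TPM in replicate 1. Nr1h3, the sterol sensor LXR alpha, had 139.9 TPM in replicate 2 and 56.8 in replicate 1, and Esrra, an orphan receptor of energy metabolism, had 586 and 326 TPM. The other 10 were not called, among them Nr1h2 at 252 TPM in replicate 2 and 233 in replicate 1 and Hnf4a at 184 and 261 TPM.

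Of 21 solute carriers for drugs, nucleosides, peptides and bile acids, 18 were tested, with 7 called higher in replicate 2 and 1 higher in replicate 1. The shares over all genes tested were 11.4% and 14.5%. The highest by mean were Slc22a18, an orphan organic cation carrier, at 364 TPM in replicate 2 and 266 in replicate 1, Slc51a, a subunit of the blood-side bile acid exporter, at 297 and 118 TPM, and Slc28a1, a nucleoside carrier, at 115 and 80.2 TPM. Of the left-out or differently named ABC proteins, Abcg8, Abca1 and the peptide transporter subunit Tap2 were called higher in replicate 2. The chloride channel Cftr was called higher in replicate 1, at 0.91 TPM in replicate 2 and 5.13 in replicate 1. Abcg5 and Tap1 were not called. Among the 12 partners of members, from haem synthesis, peroxisome assembly, translation and the potassium channels, Kcnj11 was the single call. The highest by mean were Alas1, the first enzyme of haem synthesis, at 171 TPM in replicate 2 and 144.5 in replicate 1, the peroxisomal import factor Pex19 at 77.7 and 95.9 TPM, and the mitochondrial glutaredoxin Glrx5 at 82.7 and 65.1 TPM.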

How the data were processed

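The files hold, for each library, levels of genes and of transcripts. The text files deposited with them name mm10 and GENCODE M4 as the genome and annotation, while the sources used here name neither aligner nor quantifier. Expected counts were deposited as estimated fragments, without normalisation, per the file headers. TPM values, as deposited, were divided by transcript length and brought to 1 common total. FPKM values were deposited too and entered no result. The isoform percent of a transcript, per the file headers, is its share of the TPM of its gene.

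Symbols, transcript types, positions and sequences came from GENCODE M21 (GRCm38) by identifier without version, found for 42462 of 43346 gene rows. Expected counts were rounded. Library sizes came from TMM in edgeR 4.0.16 (R 4.3.3). Each gene with a mean count of at least 10 was compared with an exact two-sided binomial test, adjusted by the Benjamini-Hochberg method over 15921 genes, and called at an adjusted p under 0.05 and at least 2-fold. Ratios on the log2 scale put replicate 2 over replicate 1, with 0.5 added to each CPM. Fold intervals are exact 95% Clopper-Pearson intervals and, like the floor of 3 counts, cover counting error only. The procedure was tested on simulated data. Values in the text are given for every member with a mean TPM of at least 5 and every called member, except 2 that are not reported here singly and stand only in sums and counts. From each related list the 3 genes with the highest mean TPM and those that a result turns on are named. The Walker A and signature patterns were read from translated GENCODE coding sequences, where RefSeq proteins had been planned. Promoter sequences were not used here. The members and lists were chosen with earlier results of these data known. Alternatives were DESeq2 1.42.0 size factors, spike-in and total scaling, no low-count filter, posterior mean counts and TPM, other fold limits, priors and TPM limits, edgeR's exact test, TPM without gland genes, each library alone, and, added after seeing the data, full-length transcripts. Scripts used Python 3.11.15 with scipy 1.17.1, and plots matplotlib 3.10.9. The mm9 junction and contig lists were not used here.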

Additional observations from a re-analysis of the deposited data

How the results depend on the processing

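No paired analysis was possible because the design has 1 group. Members called higher in replicate 2 and in replicate 1 numbered 4 and 6. These counts were 2 and 9 with spike-in scaling (7.86% and 20.1% of all genes tested) and with total counts (7.93% and 19.9%), 7 and 11 with a 1.5-fold limit (21.1% and 23.97%), 0 and 2 with a 4-fold limit (Abcc9 among them; 3.14% and 5.28%), and 0 and 0 with edgeR's exact test, which called 43 and 169 of all genes. The spread in edgeR's test came from the same libraries that it compared, so its few calls followed from the set-up. Scaling to spike-ins or totals moved the median log2 ratio of all genes to -0.24, against -0.04 with TMM. The calls of Abcb1a and Abcc6 then ended and Abca2, Abca8a and Abce1 gained one. With spike-in and with total scaling the log2 ratio of Abcb8 reversed to -0.095 and -0.089, of Abcf3 to -0.063 and -0.058, of Abcc2 to -0.020 and -0.014, and of Abcb10 to -0.027 and -0.021, all under the shift of all genes. The other 31 tested members kept their direction. With DESeq2 size factors Abcb9 was also called. On full-length transcripts alone, added after seeing the data, the family's mean TPM sum was 468, from fewer transcripts, 2 members lost their call (Abcb1a among them), and Abcb9, Abcc5 and Abcg4 gained one, which left 4 and 7. Only the members' counts were replaced here, and all other genes kept their whole-gene counts. No share over all genes on the same measure is thus given beside these calls. Calls on full-length transcripts rest on an estimated split of each gene's counts among its transcripts, an error that the test leaves out. The number of members at a TPM of at least 1 was 24 without replicate 1 and 27 without replicate 2, and the TPM sum 647 and 755. The family's median log2 ratio stayed below 0 under each scaling, filter and prior tried. The median of all genes tested was also below 0 under each scaling and without the low-count filter. With spike-in scaling the medians were -0.35 for the members and -0.24 for all genes tested. The 12 members with a mean count under 10 could not be tested at this depth.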
